A study of Mus musculus with 2 samples.

Results

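The sensory microRNA cluster studied here consists of 3 genes, Mir183, Mir96 and Mir182. They were taken by their GENCODE M21 symbols from the 2202 microRNA genes counted in small-RNA libraries of the mouse brain. All 3 symbols were found in both libraries. The tissue was left cerebral cortex, from males of the strain B6CASTF1/J aged 36 days (the F1 offspring of a C57BL/6J by CAST cross), and the labels give RNA under 30 bases. There was 1 group with 2 libraries, and per the labels they came from animal 4 (replicate 2) and animal 3 (replicate 1). Both carried the same donor identifier. No treatment, mutation or transgene was labelled, so the design held no comparison between conditions, and the values below describe the level of the cluster in cortex and how far the libraries differed.

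The cluster is known for its high level in sensory cells. Photoreceptors of the retina, hair cells of the inner ear, olfactory neurons and sensory neurons of the dorsal root ganglia express all of its members together. The members are cut from a shared primary transcript, first by Drosha in the nucleus and then by Dicer in the cytoplasm, and the mature strands guide Argonaute to messenger RNAs that pair with the seed, bases 2 to 8. Mutations in the seed of miR-96 cause hearing loss in mice and in humans, and loss of the whole cluster in mice impairs photoreceptors.

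The mature sequences of the 5′ arms, the strands best known as functional in this cluster, are shown because their seeds are compared below. The sequences are from RefSeq on GRCm38.p6, the build that mm10 stands for, and all 3 genes matched by symbol. They run 5′ to 3′ in lower case with the seed in capitals.
miR-183-5p: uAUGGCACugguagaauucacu
miR-96-5p: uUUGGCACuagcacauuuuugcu
miR-182-5p: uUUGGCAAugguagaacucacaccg

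The 3 seeds differed from one another by 1 or 2 bases. With positions counted from 1 at the 5′ end of the mature strand, miR-183-5p and miR-96-5p differed in the seed by A2U alone, and miR-96-5p and miR-182-5p by C8A alone. Between miR-183-5p and miR-182-5p both differences were present, so 5 of the 7 seed bases were identical. Over the whole strand another pair was closest. Aligned from the 5′ end without gaps, miR-183-5p and miR-182-5p were identical at 18 of 22 positions, miR-183-5p and miR-96-5p at 13 of 22, and miR-96-5p and miR-182-5p at 12 of 23.

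Among 1738 mature mouse microRNA entries in the same table, no gene outside the cluster had the seed of miR-183-5p or of miR-182-5p. The seed of miR-96-5p was also that of miR-1271-5p, whose hairpin on chromosome 13 is listed under the symbol Gm24195.
miR-1271-5p: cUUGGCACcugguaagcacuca
Gm24195 had 0 counts in replicate 2 and 0 in replicate 1, so reads assigned to that hairpin did not add to the miR-96 seed in either library at this depth. The 3′ arm of Mir96 shared its seed, AAUCAUG, with miR-3475-5p on the X chromosome. Mir3475 had 1041 counts in replicate 2 and 1207 in replicate 1.

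The deposited counts are per hairpin and do not separate its arms, so the hairpins that collected the reads are shown with both mature arms in capitals.
Mir183: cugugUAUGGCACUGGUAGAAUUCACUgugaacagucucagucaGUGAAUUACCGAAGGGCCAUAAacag
Mir96: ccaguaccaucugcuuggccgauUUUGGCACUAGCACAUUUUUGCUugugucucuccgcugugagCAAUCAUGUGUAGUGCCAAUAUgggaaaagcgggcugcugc
Mir182: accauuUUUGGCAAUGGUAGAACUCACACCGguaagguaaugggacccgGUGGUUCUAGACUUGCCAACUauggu

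All 3 hairpins lie on the minus strand of chromosome 6 (mm10). Mir183 is at chr6:30169668-30169737, Mir96 at chr6:30169446-30169551 and Mir182 at chr6:30165918-30165992. In the direction of transcription Mir183 comes first, Mir96 follows after 116 bases and Mir182 after a further 3453 bases, and the cluster spans 3820 bases in all. No other gene of GENCODE M21 overlaps that span, so the hairpins are intergenic in this annotation, in no exon, intron or UTR of another gene. The nearest gene upstream of Mir183 is the long non-coding RNA gene Rncr4, 3.15 kb away on the opposite strand. The protein-coding genes on either side are Nrf1, 12.5 kb beyond Mir182, and Ube2h, 41.6 kb beyond Mir183. The hairpins are 70, 106 and 75 bases long in the order Mir183, Mir96, Mir182, with a GC content of 45.7%, 50.9% and 48.0%. No stretch of 22 bases of any of the 3 hairpins occurred, on either strand, in another gene's transcript among the 141767 transcripts of the annotation. The genome outside transcripts was not searched here.

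The libraries held 4010274 own-strand counts at microRNA genes in replicate 2 and 4273791 in replicate 1, spread over 782 genes with a count. Levels are given as CPM, own-strand counts per 1000000 own-strand counts at microRNA genes. Intervals are exact 95% Poisson intervals per library, and they cover counting error only. A count of 0 allows a level of up to 0.748 CPM in replicate 2, against 0.702 CPM in replicate 1, the worth of 3 counts. The labelled tissue was checked against a list of neuronal microRNAs, of which 8 of 12 reached 10 CPM in both libraries, with a sum of 53534 CPM in replicate 2, against 85629.8 CPM in replicate 1. The genes of miR-124, which defines neurons, stood near 0 in both. In replicate 2 there were 15 counts at Mir124a-1, 0 at Mir124a-2 and 4 at Mir124a-3, and in replicate 1 there were 10, 0 and 20. Reads that mapped to several loci (39.9% in replicate 2, 42.8% in replicate 1) are missing from the counts of all genes. The counts at the several genes of miR-124 therefore do not give the level of miR-124 in cortex.

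The cluster was a minor part of the cortical profile. Mir183, the first hairpin of the transcript, had 630 counts in replicate 2 and 95 counts in replicate 1. Those counts corresponded to 157 CPM (145 to 169.9) in replicate 2 and 22.2 CPM (18.0 to 27.2) in replicate 1. Mir183 was the most abundant of the 3 genes in each library, and its libraries did not overlap within counting error.

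Mir182, the last hairpin, had 402 counts in replicate 2 and 50 counts in replicate 1. Its level was 100.2 CPM (90.7 to 111) in replicate 2 and 11.7 CPM (8.68 to 15.4) in replicate 1. Replicate 2 was again the high library, and the intervals lay apart.

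Mir96, the middle hairpin, had 10 counts in replicate 2 and 0 counts in replicate 1. Its level in replicate 2 was 2.49 CPM (1.20 to 4.59), and in replicate 1 it was below the limit of 0.702 CPM. It was the scarcest member in both libraries.

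**Figure D1:**
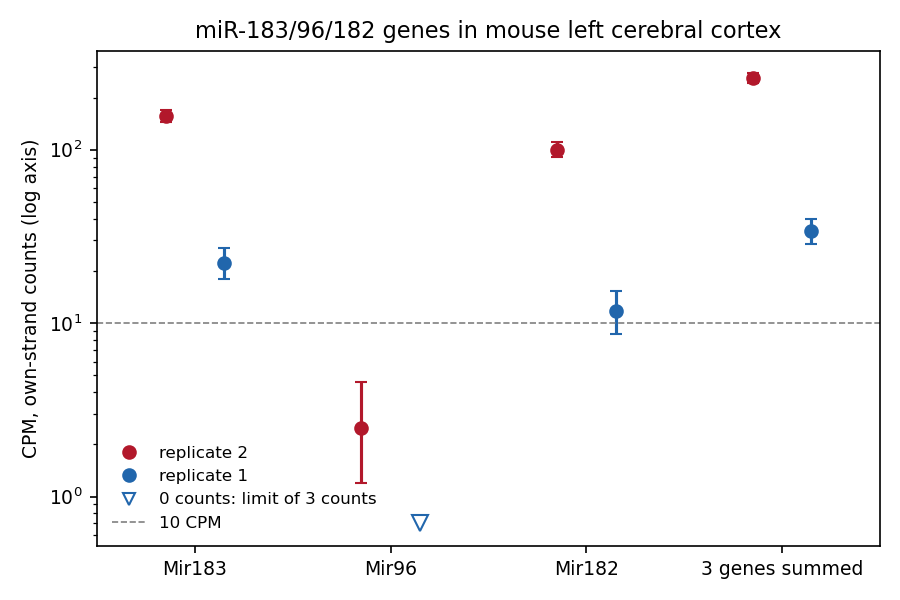
CPM (log axis) of Mir183, Mir96, Mir182 and their sum in replicate 2 (red, left) and replicate 1 (blue, right); bars are exact 95% Poisson intervals, the open triangle is the limit of 0.702 CPM that 0 counts of Mir96 allow, and the dashed line marks 10 CPM. Replicate 2 lies above replicate 1 for each gene, at 157 against 22.2 CPM for Mir183 and 100.2 against 11.7 CPM for Mir182.

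Summed, the 3 genes had 1042 counts in replicate 2 and 145 in replicate 1. The sum was 259.8 CPM (244 to 276) in replicate 2 and 33.9 CPM (28.6 to 39.9) in replicate 1, which is 0.0260% and 0.00339% of the own-strand counts in that order. Ranked among all genes by count, Mir183 stood at place 175 in replicate 2 and 271 in replicate 1, Mir182 at 203 and 311, and Mir96 at 419 in replicate 2. In replicate 1 Mir96 had no place, since it had no count. At 10 CPM or more in both libraries, Mir183 and Mir182 were detected and Mir96 was not. Across all 2202 genes 300 met that rule (13.6%).

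The spread between the libraries was as wide as the levels themselves. The mean was 89.7 ± 95.4 CPM for Mir183, 1.25 ± 1.76 CPM for Mir96 and 56.0 ± 62.6 CPM for Mir182 (SD, n = 2). The coefficients of variation of these levels were 106%, 141% and 112%. With 2 libraries and a count of 0 in 1 of them, the 141% of Mir96 is fixed and does not measure its spread. Over 516 genes, edgeR's common dispersion gave a coefficient of variation of 43.7% between the libraries, on 1 residual degree of freedom. Across the libraries the levels of Mir183 and Mir182 overlapped, so the order of their means cannot be told from that spread. Mir96 at its highest, 2.49 CPM in replicate 2, stayed below Mir182 at its lowest, 11.7 CPM in replicate 1. Within each library the order Mir183, Mir182, Mir96 held beyond counting error. Scaled to the length of the hairpin, the order was unchanged, with 2244, 1337 and 23.5 CPM per kb for Mir183, Mir182 and Mir96 in replicate 2, and 318, 156 and 0 in replicate 1. The labelled RNA, under 30 bases, is shorter than each hairpin, so this scaling is no check of the order. In bulk cortex, fewer cells that express the cluster and less of its RNA per cell cannot be told apart.

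The level of the cluster differed between the libraries beyond counting error, but a difference in its composition was not detectable. Mir183 took 60.5% of the cluster's counts in replicate 2 (exact 95% binomial interval 57.4 to 63.4) and 65.5% in replicate 1 (57.2 to 73.2). Mir182 took 38.6% (35.6 to 41.6) in replicate 2 and 34.5% (26.8 to 42.8) in replicate 1. The intervals overlapped for each gene.

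This comparison needs no scaling between libraries, since both counts come from the same one. There were 1.57 counts of Mir183 for each count of Mir182 in replicate 2 (1.38 to 1.78) and 1.90 in replicate 1 (1.34 to 2.73). The odds ratio between the libraries, replicate 2 over replicate 1, was 0.825 with an exact conditional 95% interval of 0.560 to 1.20. The interval included 1, so a change in the proportion of Mir183 to Mir182 was not shown, and changes within these bounds remain possible.

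Mir96 took 0.960% of the cluster's counts in replicate 2 (0.461 to 1.76). In replicate 1 it took 0 of 145 counts, which allows a share of up to 2.07% by the worth of 3 counts and up to 2.51% by the exact interval. At the proportion of replicate 2, replicate 1 would have held 1.41 counts of Mir96. A change in the proportion of Mir96 was therefore not detectable at this depth.

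**Figure D2:**
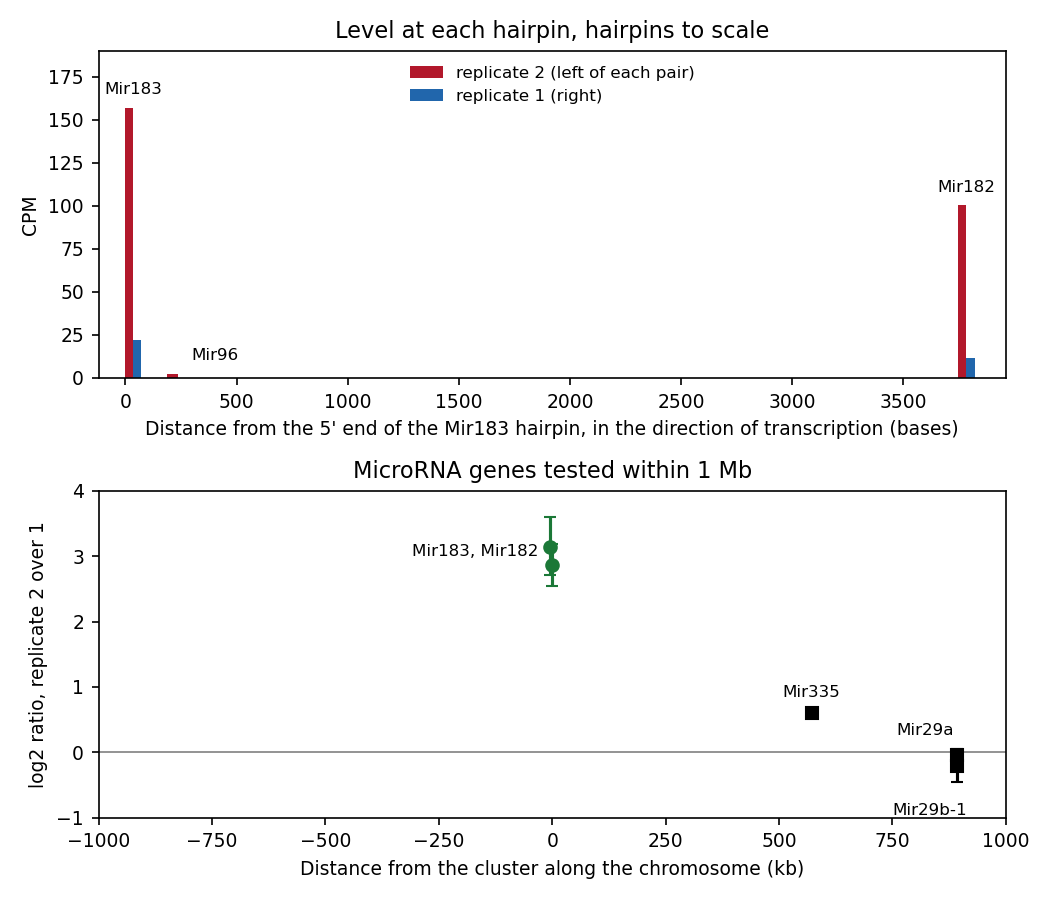
Upper panel: CPM (linear from 0) at each hairpin against distance in bases from the 5′ end of the Mir183 hairpin, hairpins drawn to scale, replicate 2 on the left of each pair of bars and replicate 1 on the right; 157 and 22.2 CPM stand at Mir183, and 100.2 and 11.7 CPM at Mir182. Lower panel: log2 ratio of replicate 2 over replicate 1 with exact 95% intervals against distance in kb for the microRNA genes tested within 1 Mb, where Mir183 (2.86) and Mir182 (3.14) lie above Mir335 (0.60), Mir29a (-0.04) and Mir29b-1 (-0.21).

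The libraries were compared gene by gene with an exact two-sided binomial test on TMM effective library sizes, over the 516 genes with 10 or more counts, with Benjamini-Hochberg adjustment over all of them. The test compares these libraries and not conditions, and its p-values cover counting error only. All 3 members were called higher in replicate 2. Among all genes tested 27.5% were called higher and 30.4% lower, so a call alone was common. Mir96 reached the minimum of 10 counts through replicate 2 alone, so it had to differ to be tested. Mir183 and Mir182 had 95 and 50 counts in replicate 1 and would have been tested without replicate 2.

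Mir182 was 8.81-fold higher in replicate 2 than in replicate 1 (exact 95% interval 6.55 to 12.1, log2 ratio 3.14, exact binomial adjusted p = 7.63e-76). Mir183 was 7.27-fold higher (5.85 to 9.11, log2 ratio 2.86, exact binomial adjusted p = 9.24e-108). Mir96, at 0 counts in replicate 1, was at least 3.65-fold higher when set against 3 counts in that library, a bound that takes its 10 counts in replicate 2 without error (exact binomial adjusted p = 0.00136). The exact 95% interval of its ratio, which covers the error of both counts, began at 2.46-fold and had no upper end. The intervals of Mir182 and Mir183 overlapped.

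Of the 516 genes 3.29% were called higher with a 4-fold difference or more, genes at 0 in replicate 1 being entered at their bound. Mir182 and Mir183 were among them and Mir96 was not. Of the 511 genes with counts in both libraries, 7 had a higher ratio than Mir182 and 8 had one as high as that of Mir183 or higher, Mir182 included. Ranked by ratio, Mir182 was at place 8 and Mir183 at place 9. Several genes above them rested on few counts in replicate 1. Those above Mir182 with over 10 counts in replicate 1 were Mir451a (3.99), Mir200c (3.75) and Mir185 (3.55). The median log2 ratio of Mir183 and Mir182 was 3.00, and 2.86 with Mir96 at its bound. Over the 511 genes it was -0.04, with the 5th percentile at -1.80 and the 95th at 1.58.

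**Figure D3:**
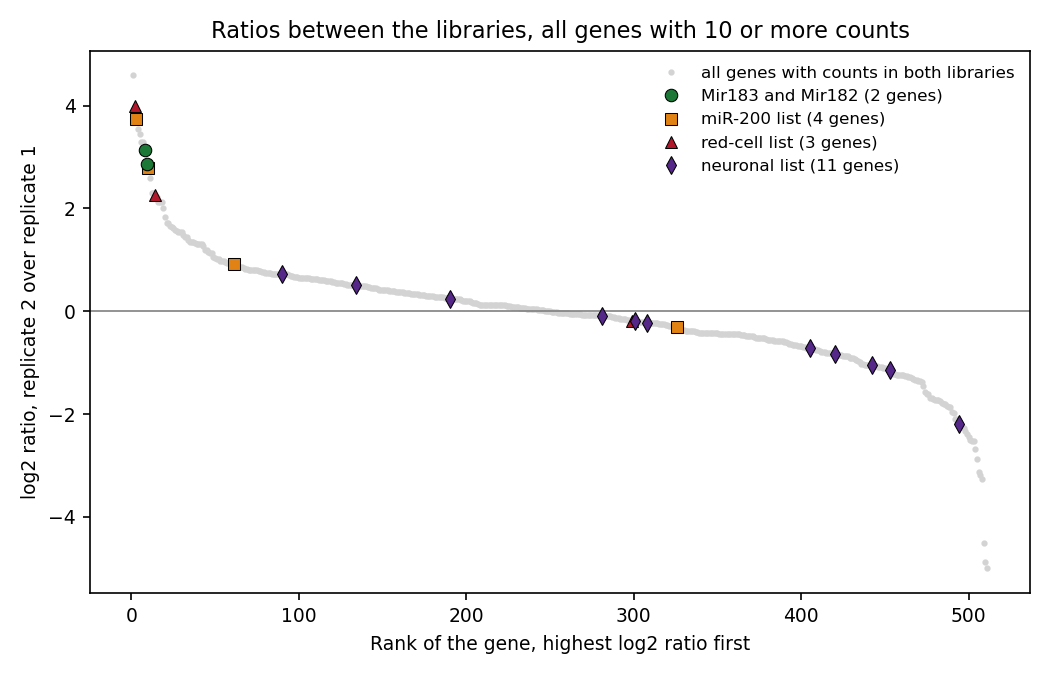
log2 ratio of replicate 2 over replicate 1 (vertical axis) of the 511 genes with counts in both libraries, ordered from the highest (horizontal axis, rank), with Mir183 and Mir182, the miR-200 list, the red-cell list and the neuronal list in colour. Mir182 (3.14) and Mir183 (2.86) stand at places 8 and 9. The miR-200 list runs between Mir200c (3.75) and Mir200b (-0.31) and the red-cell list between Mir451a (3.99) and Mir486 (-0.18). The 11 neuronal genes run between Mir124a-1 (0.72) and Mir124a-3 (-2.19) and overlap both lists.

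Neighbours on the chromosome did not show ratios of that size. Within 1 Mb of the cluster the tables held 6 other microRNA genes, 3 of which had enough counts to test. Mir335, which lies 572 kb away, had 4671 CPM in replicate 2, against 3176 CPM in replicate 1 (log2 ratio 0.60, exact 95% interval 0.56 to 0.63, exact binomial adjusted p = 1.29e-297). Mir29a, 893 kb away, had 7809.7 CPM in replicate 2, against 8255 CPM in replicate 1 (log2 ratio -0.04, -0.06 to -0.02, exact binomial adjusted p = 8.28e-04). Mir29b-1 beside it had 57.4 and 68.1 CPM in replicates 2 and 1 and did not pass the test (log2 ratio -0.21, -0.46 to 0.05, exact binomial adjusted p = 0.159). None of these intervals reached those of Mir183 or Mir182. Of the 3 genes too low to test, Gm26220 had 1 and 3 counts in replicates 2 and 1, and Gm44354 and Gm23049 had 0 in both.

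The closeness of Mir183 and Mir182 was set beside that of other microRNA genes that lie next to each other. Over the genome there were 97 pairs of successive genes on the same strand within 10 kb, counting only genes whose counts summed to 100 or more over both libraries, which leaves out Mir96. Mir183 and Mir182, with 95 and 50 counts in replicate 1, did not reach that minimum in replicate 1 alone. The log2 ratios of Mir183 and Mir182 differed by 0.28. In the other 96 pairs the absolute difference had a median of 0.72 and ran between 0.02 and 3.09, and 21 pairs were closer than Mir183 and Mir182. The widest pair was Mir200a and Mir200b of the miR-200 family, at 2.78 and -0.31. Mir144 and Mir451a, at 2.26 and 3.99, were the only other pair of the 97 with both genes at a log2 ratio of 2 or more. Mir200c (log2 ratio 3.75) and Mir141 beside it were not counted, because Mir141 had 48 counts in replicate 2 and 0 in replicate 1. The exact 95% interval of the log2 ratio of Mir141 began at 3.78, but Mir141 reached the minimum of 10 counts through replicate 2 alone. Given Mir144 and Mir451a, joint movement of neighbours was not particular to the cluster. Pairs that share a gene are not independent, and no test was made.

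**Figure D4:**
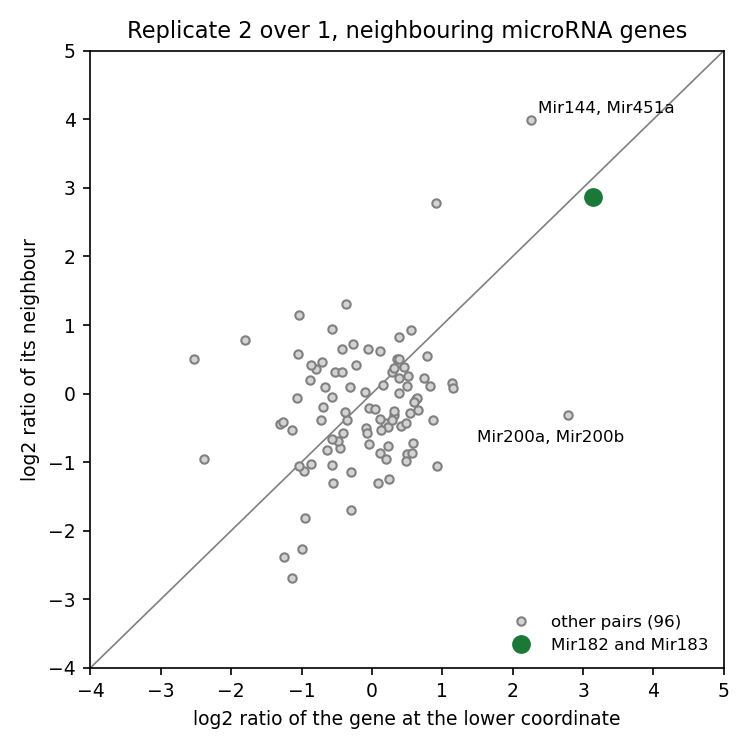
log2 ratio of replicate 2 over replicate 1 of each microRNA gene (horizontal axis) and of its neighbour within 10 kb on the same strand (vertical axis), for 97 pairs in which both genes had 100 or more counts, with a line of equal ratios. Mir182 and Mir183 (green, 3.14 and 2.86) lie near the line. Mir144 and Mir451a (2.26 and 3.99) lie in the same corner above it, and Mir200a and Mir200b (2.78 and -0.31) lie far below it.

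The genes whose pattern was most like that of the cluster were taken by the distance of their log2 ratio from that of the 3 genes summed (2.98, 2.73 to 3.24), over the 2 libraries. The nearest was Mir200a on chromosome 4, an epithelial microRNA, with 119 counts in replicate 2 and 19 in replicate 1 (log2 ratio 2.78, exact 95% interval 2.07 to 3.56, distance 0.20). The next 4 rested on few counts. Mir301b and Mir7655 each had 9 counts in replicate 2 and 1 in replicate 1 (3.30, 0.45 to 8.76, distance 0.32). Mir7093 had 11 and 2 counts in that order (2.59, 0.40 to 5.81, distance 0.39), and Mir5133 had 10 and 1 (3.45, 0.64 to 8.89, distance 0.48). With 2 libraries such a likeness is 1 ratio per gene, and the wide intervals leave it loose for all but Mir200a.

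Markers of other tissues and cells moved between the same libraries, in both directions. Among all 516 genes tested 27.5% were called higher and 30.4% lower, so a call within a list below was common in itself. In the miR-200 list of epithelia and olfactory tissue 4 of 5 genes were called higher and 1 lower, and the list summed to 386 CPM in replicate 2, against 138 CPM in replicate 1. Mir200c had 201 CPM in replicate 2, against 15.4 CPM in replicate 1, and Mir141 beside it 12.0 and 0 CPM in that order. Like Mir96, Mir141 was testable through replicate 2 alone. Mir200b was the lower one, at 54.6 CPM in replicate 2, against 69.7 CPM in replicate 1.

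The red-cell list named 4 genes, of which Mir486b was not found by its symbol and has no value here. Of the 3 genes found, 2 were called higher and 0 lower, with a sum of 794 CPM in replicate 2, against 83.5 CPM in replicate 1. Mir451a, which accumulates in maturing red cells, had 726 CPM in replicate 2, against 47.0 CPM in replicate 1. The sums of these lists, like that of the cluster, were higher in replicate 2, and their part in the cluster's difference was not tested.

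Other lists were lower or mixed in replicate 2. The epidermal list, Mir203 and Mir205, had 2 of 2 genes lower, at 35.7 CPM in replicate 2, against 95.7 CPM in replicate 1. The striated muscle list had 4 of the 4 genes tested lower, at 29.9 CPM in replicate 2, against 80.5 CPM in replicate 1. Of its 9 genes 3, among them Mir1a-1 and Mir133a-2, had 0 counts in both libraries. Since multi-mapped reads are missing, microRNAs with several genes, such as miR-1a and miR-133a, can be undercounted in this sum. The list of pigment epithelium and choroid plexus, whose Mir204 is also abundant in the retina, had 0 of 2 genes higher and 1 lower, at 391 CPM in replicate 2, against 458 CPM in replicate 1. The multiciliated list had 0 of the 3 genes tested higher and 1 lower, at 202 CPM in replicate 2, against 266 CPM in replicate 1.

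The endocrine and pituitary list had 2 of 4 genes higher and 1 lower, at 2780.4 CPM in replicate 2, against 2173 CPM in replicate 1, and Mir375, its most specific member, was the lower one, at 108 CPM in replicate 2, against 144 CPM in replicate 1. The neuronal list had 2 of the 11 genes tested higher and 6 lower. Median log2 ratios were 1.84 for the miR-200 list over 4 genes and 2.26 for the red-cell list over 3, and they were -1.60, -1.91, -0.61, -0.09, 0.33 and -0.22 for the epidermal, muscle, pigment epithelium, multiciliated, endocrine and neuronal lists, beside -0.04 over all 511 genes.

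**Figure D5:**
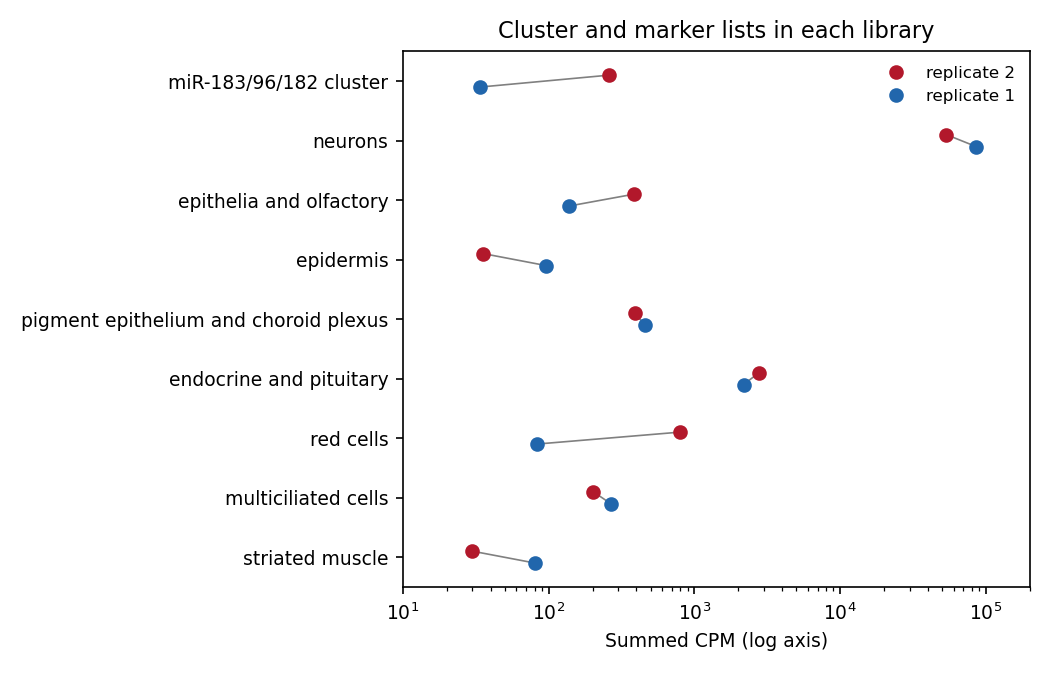
Summed CPM (log axis) of the cluster and of 8 marker lists in replicate 2 (red, upper point of each row) and replicate 1 (blue, lower point). The cluster lies at 259.8 against 33.9 CPM and the red-cell list at 794 against 83.5 CPM, while the epidermal and muscle lists lie lower in replicate 2.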

How the data were processed

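Small RNA from 2 cortex libraries was analysed, 1 group. The deposited tables hold whole-number read counts per microRNA gene, not normalized, mapped to mm10 with GENCODE M21 per the text files beside them. Which aligner and counter were used, and whether adapters were trimmed or molecules tagged, is not given in the sources used here. As columns carry no names, the 3 columns were read as unstranded, own-strand and opposite-strand counts, and own-strand counts were used; at Mir183, Mir96 and Mir182 unstranded and own-strand counts were equal and opposite-strand counts 0. The 4 entries that name no gene stayed out of totals: unmapped reads (20.9% of all reads in replicate 2, 16.7% in replicate 1), multi-mapped reads (39.9% and 42.8%), reads outside microRNA genes (4.39% and 4.56%) and ambiguous reads (0 on the own strand).

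With 1 group, edgeR's quasi-likelihood test has no contrast. TMM factors and the common dispersion (intercept-only) came from edgeR 4.0.16 in R 4.3.3 over genes with 10 or more counts. Ratios were tested by exact two-sided binomial tests (SciPy 1.17.1, Python 3.11.15), with Benjamini-Hochberg adjustment at 0.05 over all 516 genes. The test was checked on simulated data drawn with counting error alone, so the check does not cover spread between libraries. Alternatives were DESeq2 1.42.0 size factors and total counts, other minimum counts and CPM, unstranded counts and each library alone. Since the labels number the animals differently, the libraries were taken as separate animals, but p-values do not measure variation between animals.

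The members and lists were chosen with earlier results of these data known. Named are the 3 members, the 5 genes of nearest log2 ratio, microRNA genes within 1 Mb or with a shared seed, and genes of the lists. Mir185 and the neighbouring pairs were named after their values were seen. The symbol Mir486b of the red-cell list was not found, so the calls, sum and median of that list leave it out, and its direction is not known here.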

Additional observations from a re-analysis of the deposited data

How the results depend on the processing

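All 3 members stayed higher in replicate 2 under every alternative that gave a ratio, with the exact binomial test past the threshold in each. The members' counts were the same in each, so only the scaling and the genes tested changed, which leaves little room for another outcome. Mir96 was testable through replicate 2 alone. The log2 ratio ran between 2.77 and 2.90 for Mir183, 3.05 and 3.18 for Mir182, and 1.78 and 1.91 for the bound of Mir96 (highest adjusted p 0.00226). With 100 or more counts required Mir96 could not be tested, and with 100 CPM required in both libraries 0 members were detected, against 2 at 10 CPM. The mean level of the cluster, 147 CPM, was 51.3 CPM with all reads as the denominator, and without replicate 1 or replicate 2 it was 259.8 or 33.9 CPM. TMM factors from every gene were an alternative chosen after the data were seen. Over all genes, 142 were called higher and 157 lower. DESeq2 size factors gave 150 and 146, total own-strand counts 133 and 167, and total reads 130 and 177. No paired analysis was possible because there was 1 group. Counting error limits Mir96, with 10 counts in all, most.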
